A study of Mus musculus with 2 samples.

Results

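Among the H3K36me2 peaks listed for mouse colon, 3148 lay at the same place in a *Nsd2* fl/fl and a *Nsd2* ΔIE library. These pairs were selected on peak position: each joins 1 peak of each list on a numbered chromosome, and the overlap makes up at least 50% of the width of both. They took in 15.8% of the 19969 autosomal peaks of *Nsd2* fl/fl and 13.4% of the 23507 autosomal peaks of *Nsd2* ΔIE, out of 19976 and 23518 listed in all. The matched regions were annotated to 2834 genes, or 15.6% of the 18176 genes with an autosomal peak in either list.

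NSD2 places dimethyl groups on lysine 36 of histone H3, and other methyltransferases, among them NSD1, NSD3 and ASH1L, can lay down the same mark. H3K36me2 typically spreads over broad stretches of genes and intergenic chromatin, while SETD2 carries the mark on to trimethylation in the bodies of transcribed genes. CUT&Tag brings a Tn5 transposase to the mark through its antibody, and the DNA cut there is tagged and sequenced.

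The libraries came from colon tissue of *Nsd2* fl/fl mice, whose floxed alleles are intact, and of *Nsd2* ΔIE mice, in which Villin-Cre deletes *Nsd2* in the intestinal epithelium. By the study's methods the animals were male littermates on a C57BL/6J background, put on diet at 7 to 8 weeks of age. Both groups were fed a diet rich in fat and cholesterol (HFCD), for 18 weeks by the methods and 16 weeks by the deposited design text. The groups are called fl/fl and ΔIE from here on. Each genotype had 1 library, how many mice went into it is not given in the sources used here, and no test between genotypes was possible. Colon tissue also holds smooth muscle, stromal, neural and immune cells in which Villin-Cre is not active, so fewer cells with the mark and less mark per cell cannot be told apart in any region.

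Genes with a peak in either list included 8 of 13 epithelial markers, 6 of 13 smooth muscle and stromal markers, 6 of 8 neuron and glia markers and 4 of 12 immune markers. Of the 21900 protein-coding genes of the RefSeq gene table, 12406 had no peak, and the marker counts are not read as a result about the tissue. A peak of this mark is not a measure of expression and gives no cell proportions. At *Nsd2* itself, 0 peaks were listed in fl/fl and 1 peak of 3766 bp in ΔIE, and it had no match. The number of reads is unknown and no scaling to depth is stated for the signal, so the signal of a peak is given relative to the median peak of its own list. The intervals below are 95% Wilson intervals and cover counting error only.

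The promoter sequences show start sites of genes with a matched pair nearby in both libraries. Of the gene lists described below, 9 genes had a matched pair within 1 kb of a transcription start site (TSS) in both libraries, and the RefSeq promoter table matched 5 of them by symbol. The 4 with a single promoter there are shown as the 250 bases before and the 50 bases after the start, with every CG dinucleotide in capitals. Their positions are those of GRCm38.p6, which is not the build of the peak lists, so they are not set beside peak coordinates. By the distances in the lists, the promoter peaks of both libraries covered the TSS at *Vil1*, *Notch4* and *Hdgfl2*. At *Ski* they lay at -508 and -595 bp from the TSS (minus for upstream), so neither covered it.
*Vil1* promoter, chr1:74409134-74409433, plus strand: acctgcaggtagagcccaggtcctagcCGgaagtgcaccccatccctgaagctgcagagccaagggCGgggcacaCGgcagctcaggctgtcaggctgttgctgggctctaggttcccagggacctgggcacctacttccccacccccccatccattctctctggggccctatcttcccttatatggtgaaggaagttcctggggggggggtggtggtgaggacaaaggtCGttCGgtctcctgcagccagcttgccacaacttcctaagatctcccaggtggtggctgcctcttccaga
*Notch4* promoter, chr17:34564045-34564344, plus strand: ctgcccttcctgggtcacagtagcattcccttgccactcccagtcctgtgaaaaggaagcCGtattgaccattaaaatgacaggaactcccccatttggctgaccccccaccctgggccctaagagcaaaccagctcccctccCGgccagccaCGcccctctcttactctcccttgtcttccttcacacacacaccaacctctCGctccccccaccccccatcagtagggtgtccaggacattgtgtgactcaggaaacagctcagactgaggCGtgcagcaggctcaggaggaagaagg
*Hdgfl2* promoter, chr17:56079381-56079680, plus strand: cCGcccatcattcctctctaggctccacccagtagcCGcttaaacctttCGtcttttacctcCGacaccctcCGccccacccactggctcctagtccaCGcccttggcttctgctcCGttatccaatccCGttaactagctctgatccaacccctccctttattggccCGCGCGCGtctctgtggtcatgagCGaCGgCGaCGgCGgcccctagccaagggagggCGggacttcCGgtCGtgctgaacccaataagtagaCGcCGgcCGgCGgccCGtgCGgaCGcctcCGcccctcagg
*Ski* promoter, chr4:155222486-155222785, minus strand: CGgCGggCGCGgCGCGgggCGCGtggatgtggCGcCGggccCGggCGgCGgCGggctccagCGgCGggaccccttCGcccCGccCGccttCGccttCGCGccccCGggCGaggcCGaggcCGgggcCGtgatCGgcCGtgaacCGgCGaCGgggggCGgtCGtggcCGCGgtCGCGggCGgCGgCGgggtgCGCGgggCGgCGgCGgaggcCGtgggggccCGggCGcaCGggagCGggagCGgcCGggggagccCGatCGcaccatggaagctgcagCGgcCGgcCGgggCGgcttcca
The *Vil1* and *Notch4* windows held 5 CpGs each, and the *Hdgfl2* and *Ski* windows 28 and 59. Relative to the number that their C and G content would give, this is an observed over expected ratio of 0.175, 0.214, 0.978 and 1.12, respectively. CpG-poor and CpG-dense promoters were thus both present among genes with a matched pair within 1 kb of a TSS. Over the 374 of 462 protein-coding genes with such a pair for which the table holds a sequence, the ratio exceeded 0.6 in 43.3% (38.4% to 48.4%). The table covered 79.9% of all protein-coding genes and 77.6% to 78.9% of those with peaks but no such pair, which is under 80%, so a comparison with either is void and is not given.

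The 3148 pairs were described first by how closely their positions agreed. Matched peaks overlapped by a median of 3368 bp, and the part of the joint span of a pair that both peaks covered had a median of 62.4%, an interquartile range of 53.3% to 73.5% and a range of 33.9% to 99.5%. Position was near identical in few pairs, since 138 of the 3148 (4.38%) shared over 90% of their span and 49 shared over 95%. The left edges of a pair lay a median of 883 bp apart and the right edges 880 bp. In 1871 pairs (59.4%) the peaks were staggered, in 962 (30.6%) the ΔIE peak lay inside the fl/fl peak, and in 315 (10.01%) the reverse held. These values all follow from positions, which the rule used, and are given as a description.

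At the threshold, the pairs just inside were at *Eno1*, which encodes a glycolytic enzyme, at *Gm46043* and at *Lrrfip1*. At *Eno1*, the fl/fl peak of 5714 bp held the whole ΔIE peak of 2857 bp, exactly 50% of its width. The pairs just outside were at *Gm36317*, *Gm51646* and *Lhpp*, each with 49.99% of the fl/fl width shared. Short of the rule were 4311 overlapping combinations, of which 1839 shared less than 50% of both peaks, 2075 less than 50% of the fl/fl peak alone and 397 less than 50% of the ΔIE peak alone. The limit on the fl/fl peak was thus missed more often than that on the ΔIE peak.

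The position of the highest signal within each peak is recorded by the peak caller and was not used by the rule. It cannot be set against the distance of the edges, which the rule bounds. The maxima of a pair were a median of 1200 bp apart (interquartile range 527 to 2177 bp), a median of 22.7% of the joint span. They lay within 500 bp of each other in 753 pairs (23.9%, 22.5% to 25.4%) and over 2 kb apart in 910 pairs (28.9%, 27.4% to 30.5%). The recorded stretches of maximum signal, with a median of 19 bp in each library, overlapped in 347 pairs (11.02%). The distance was longest in weak pairs: its median in 4 classes of 787 pairs, ordered by the lower of both relative signals, was 1430, 1150, 1184 and 1036 bp.

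**Figure D1:**
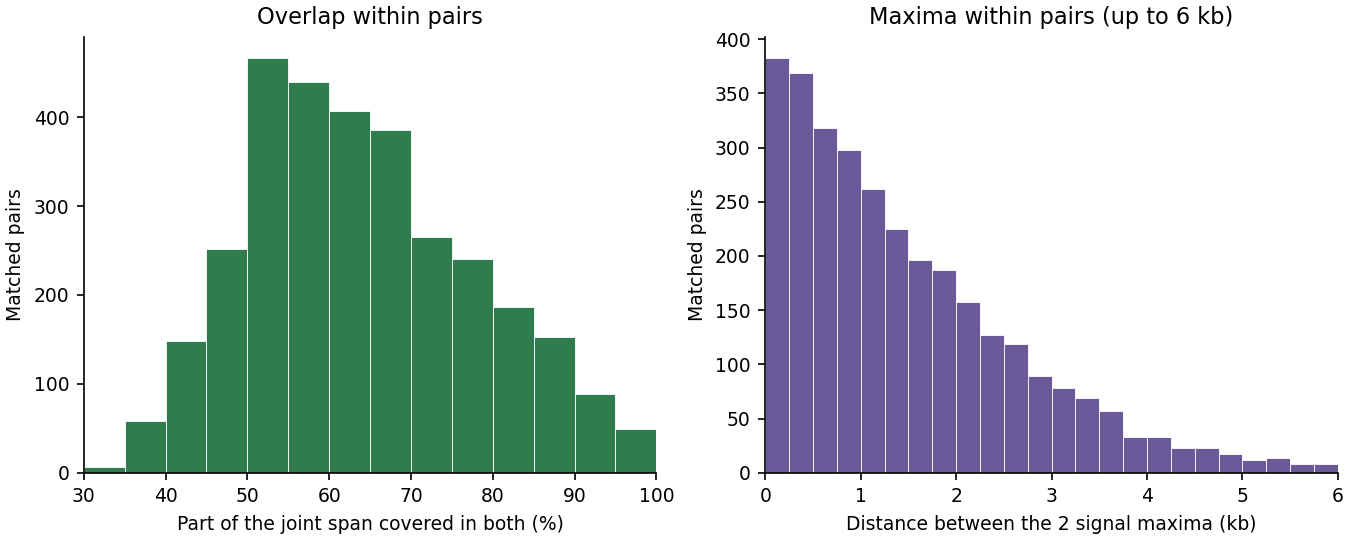
Number of matched pairs (of 3148) by the part of their joint span that both peaks cover, in steps of 5 percentage points (left), and by the distance between the points of maximum signal of both peaks, in steps of 250 bp (right; 42 pairs at 6 kb or more are not drawn). The overlap is highest in number between 50% and 55% (467 pairs), and the distances fall off from 383 pairs below 250 bp without a gap.

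Most matched peaks were narrower in the ΔIE library. The width had a median of 4617 bp in fl/fl and 3952 bp in ΔIE, with 2169 pairs (68.9%, 67.3% to 70.5%) narrower and 978 (31.1%) wider in ΔIE. Over the pairs, the log2 ratio of ΔIE to fl/fl width had a median of -0.25 and an interquartile range of -0.58 to 0.09, within the limits of -1 and 1 that the rule sets. The size of this shift depended on the rule, as the median was -0.42 with a reciprocal overlap of 25% and -0.060 with 75%.

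The lists as a whole differed in the same direction and by more, with medians of 4643 and 3426 bp over all autosomal peaks. In fl/fl the matched peaks had about the width of the list, whereas in ΔIE they were wider than its peaks without any overlap, which had a median of 3350 bp. In the 4 width classes of equal size, from narrow to wide, 15.8%, 16.4%, 15.4% and 15.5% of the fl/fl peaks were matched, and 6.81%, 11.01%, 12.6% and 23.2% of the ΔIE peaks. The share matched was thus higher among wide peaks in ΔIE and nearly level in fl/fl. A wide ΔIE peak comes nearer to the width of a typical fl/fl peak, and width takes part in the rule, so no test was made of it. Matched peaks held 16075298 bp in fl/fl and 14090421 bp in ΔIE, or 15.6% and 16.0% of the length of the lists, and 11671239 bp of this were shared.

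**Figure D2:**
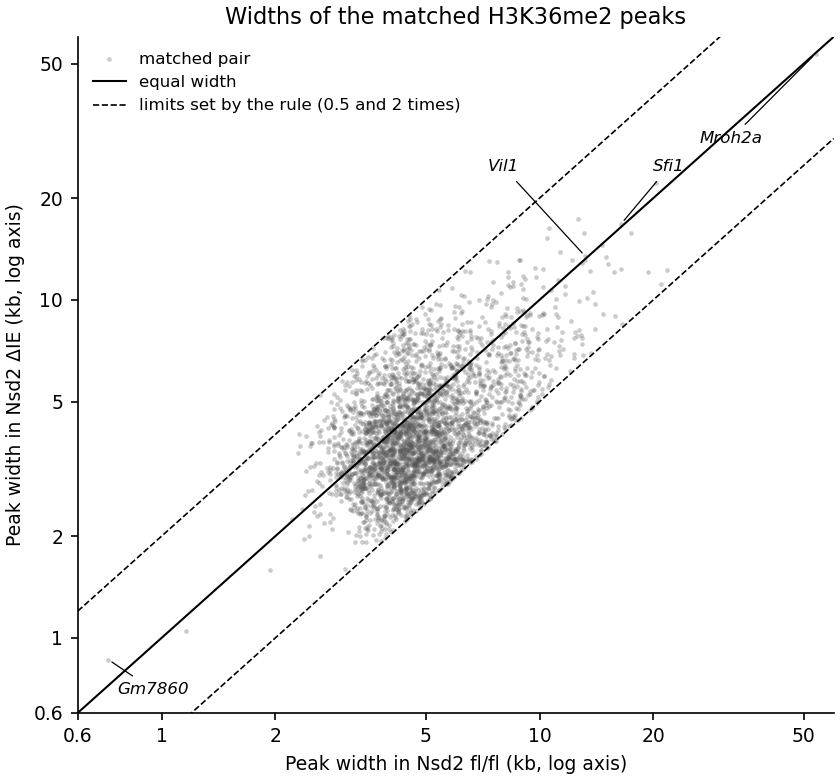
Width of the ΔIE peak against the width of the fl/fl peak for the 3148 matched pairs, in kb on log axes. The solid line marks equal width and the dashed lines the ratios of 0.5 and 2 that the overlap rule allows, and 2169 points lie below the solid line.

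The genomic feature of a peak was not used in matching. Promoters, reaching 3 kb to either side of a TSS in the authors' annotation, made up 37.8% (36.1% to 39.5%) of matched fl/fl peaks, and 28.8% (28.0% to 29.6%) of the 13167 without any overlap. In ΔIE the shares were 36.6% (35.0% to 38.3%) and 24.8% (24.1% to 25.4%) of 16296. Introns and distal intergenic stretches took smaller shares of the matched peaks than of those without overlap, at 15.8% against 23.6% and 13.3% against 21.4% in fl/fl, and at 16.8% against 25.7% and 13.6% against 23.7% in ΔIE. 3′ UTRs took larger shares, at 10.5% against 6.55% and 9.72% against 5.90%. In both libraries the matched regions therefore lay more often at the starts and ends of genes.

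Peaks that overlapped but fell short of the rule resembled the matched ones in fl/fl, where 39.4% (37.8% to 40.9%) of 3654 were at promoters. In ΔIE the promoter share of the 4063 such peaks was 33.3% (31.9% to 34.8%), between that of the matched peaks and that of the peaks without overlap. Seen from the feature, 20.9% of fl/fl peaks at 3′ UTRs and 18.8% of those within 1 kb of a TSS were matched, against 11.8% in introns and 11.6% in distal intergenic stretches. The same shares of ΔIE peaks were 18.6%, 18.5%, 9.54% and 9.06%.

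Wide peaks reach a promoter more easily, and the shares were therefore set side by side within width classes. In fl/fl, promoters made up 33.7%, 34.0%, 37.7% and 46.0% of the matched peaks from the narrowest to the widest class, and 28.0%, 27.7%, 28.4% and 40.1% of all other peaks. In ΔIE the values were 30.8%, 34.0%, 33.8% and 41.1% of the matched and 24.3%, 24.5%, 25.2% and 32.9% of the other peaks. The matched share was the higher one in each class of both lists. With the signal per bp in place of the width, it was also higher in each of the 4 classes of each list.

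**Figure D3:**
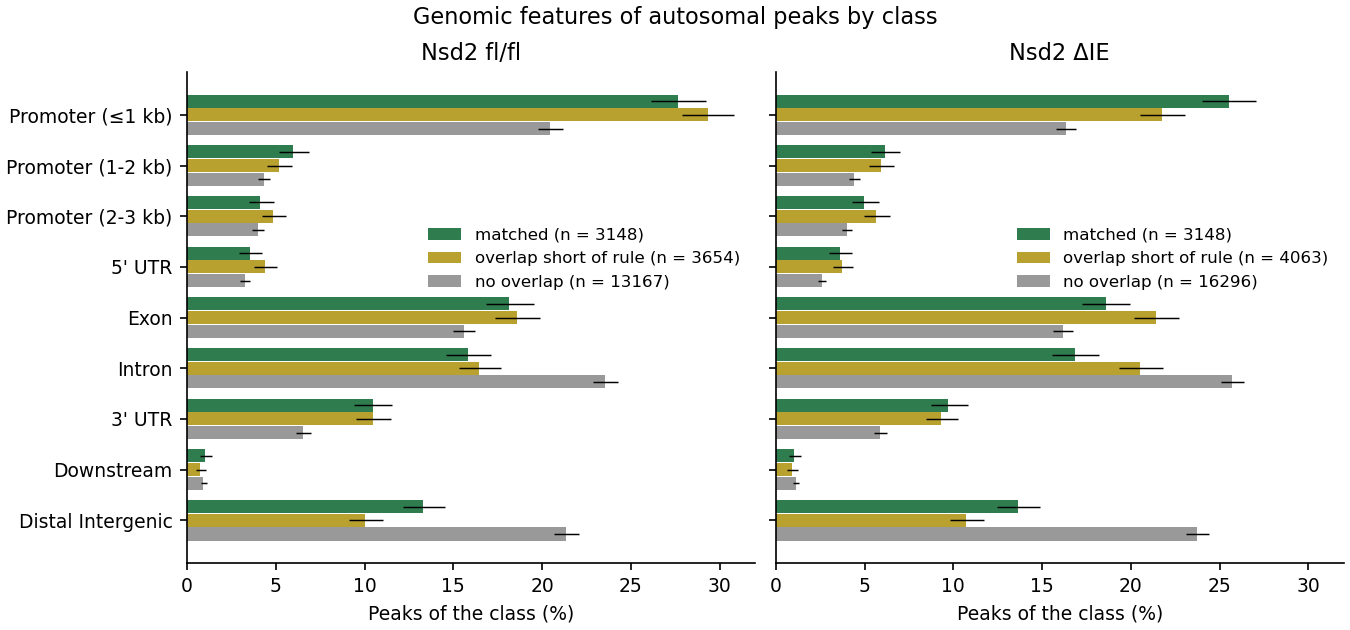
Share (%) of each genomic feature among autosomal peaks that were matched, that overlapped short of the rule, and that had no overlap, in fl/fl (left) and ΔIE (right), with 95% Wilson intervals (counting error only). Promoters within 1 kb of a TSS reach 27.7% and 25.5% of matched peaks against 20.5% and 16.3% without overlap, and distal intergenic peaks show the reverse order.

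Both peaks of a pair were annotated to the same gene in 3029 pairs (96.2%) and to the same feature in 2541 (80.7%). The largest number of changed features was from a promoter within 1 kb to one 1 to 2 kb away, in 104 pairs. By the biotypes of the RefSeq gene table, protein-coding genes were named for 61.7% of matched peaks in each library, beside 55.2% of other fl/fl peaks and 54.0% of other ΔIE peaks. Long noncoding RNA genes were named for 26.2% and 26.1% of matched peaks, beside 30.0% and 30.9%. By chromosome, the share of fl/fl peaks that were matched ran from 8.60% on chromosome 18 and 9.19% on chromosome 13 to 18.4% on chromosome 17.

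At promoters, 625 pairs were annotated within 1 kb of the same TSS in both libraries. The fl/fl peaks reached a median of 2008 bp upstream and 3052 bp downstream of the TSS, and the ΔIE peaks 1688 and 2773 bp. Both libraries thus reached farther into the gene than away from it. The upstream edge lay nearer to the TSS in ΔIE in 376 pairs (60.2%) and the downstream edge in 383 (61.3%), with median shifts over all 625 pairs of -266 and -292 bp (minus for nearer). In 197 pairs (31.5%) both edges were nearer, and in 63 (10.1%) both were farther, so the difference in width was spread over both sides.

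The maxima of these promoter pairs did not sit on the TSS. They had a median of 549 bp downstream in fl/fl (interquartile range -1168 to 1953 bp) and 600 bp downstream in ΔIE (-1017 to 1972 bp). Within 300 bp of the TSS lay 8.96% and 8.48% of them.

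**Figure D4:**
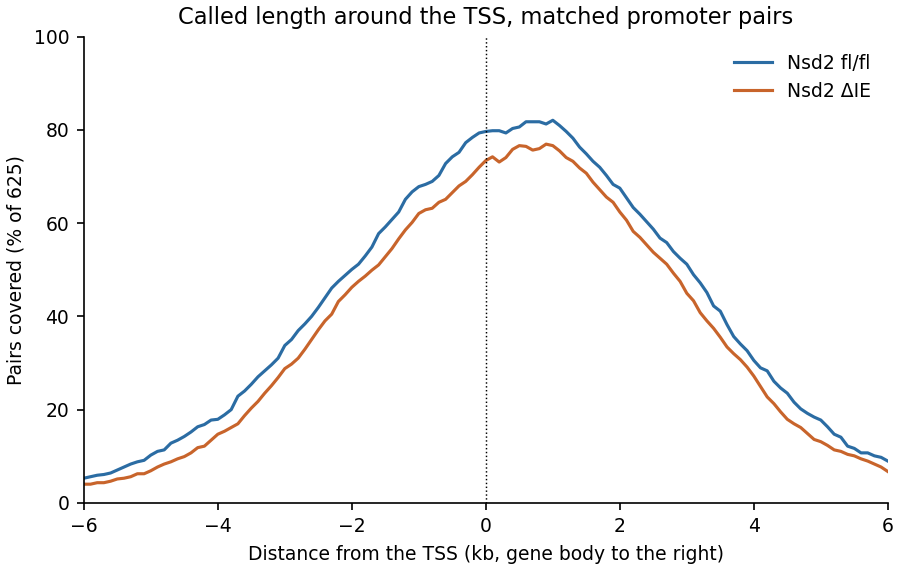
Share (%) of the 625 promoter pairs whose peak covers each position from 6 kb upstream to 6 kb downstream of the TSS, for fl/fl (blue) and ΔIE (orange). At the TSS the peak covers 79.7% and 73.4% of them, respectively, and both curves extend farther on the side of the gene body.

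Relative to the median signal per bp of the list, matched peaks had a median of 1.06 in fl/fl and 1.02 in ΔIE, and peaks without overlap 0.979 and 0.982. The share matched was higher at high signal in fl/fl, at 9.73%, 14.3%, 16.8% and 22.2% in 4 equal classes from low to high signal per bp. In ΔIE it was 10.4%, 13.9%, 15.5% and 13.8%, with no further increase in the highest class. By summed signal, which also grows with the width of a peak, it ran from 11.96% in the lowest to 19.5% in the highest class of fl/fl and from 6.76% to 25.2% in ΔIE. Across the 3148 pairs, which share the sequence and its mappability between libraries, Spearman's rho was 0.23 for the signal per bp, 0.44 for the summed signal and 0.47 for the width. The rule keeps the width ratio of a pair between 0.5 and 2. A positive rho for the width, and for the summed signal that grows with it, is thus partly set by the selection. Pairs are not independent replicates, and these values only describe how loosely the ranks of the pairs went together.

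A small set of pairs had a high signal in both libraries, from far above the rest down to near the limit used. The signal per bp exceeded 2 times the list median in both for 11 of the 3148 pairs, a set chosen after the values were seen. Of the peaks above 2 times the median, 15 of 25 in fl/fl and 12 of 42 in ΔIE were matched, and of those above 5 times, 6 of 9 and 5 of 6. Over all autosomal peaks, 15.8% in fl/fl and 13.4% in ΔIE were matched. Most ΔIE peaks above 2 times the median had no match, which also held for ΔIE peaks as a whole. Of these 11 pairs 8 shared over 90% of their span, their median share was 97.8%, and the median log2 width ratio was -0.01. Without them, the other 3137 pairs had a median share of 62.3%, a median log2 width ratio of -0.26 and 69.0% narrower in ΔIE.

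The highest was LOC118568312 on chromosome 17, from 40153888 to 40159852 in fl/fl and to 40159720 in ΔIE, with 59.8 and 59.0 times the median. The left edges were identical and the maxima 1 bp apart. *Sfi1* on chromosome 11, whose product is a centrosome protein, followed with 19.8 and 17.5 times the median over 16456 and 16801 bp. *Gm4252* reached 11.5 and 14.2 times over 1158 and 1047 bp, and *Mt1*, which encodes the metal-binding protein metallothionein 1, 7.01 and 11.5 times over 1938 and 1588 bp. These short peaks lie at the lower end of the widths of the lists.

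*Vil1*, the gene of the brush border protein villin, held the strongest matched peak of the listed genes. Its pair spanned chr1:74441213-74454396 in fl/fl (13184 bp) and chr1:74440976-74454454 in ΔIE (13479 bp), in the coordinates of the lists, with 97.8% of the span shared. The signal per bp was 10.6 and 12.2 times the list median, and the peak ranked number 6 by summed signal in each list. Its maxima lay 4239 bp apart. A Villin-Cre transgene carries regulatory sequence of *Vil1*, and the methods use Villin-Cre to delete *Nsd2*. The lists hold no measure of copy number, and the part of transgene copies in the *Vil1* signal of either library was not tested. The library labelled fl/fl thus held the high *Vil1* signal too.

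On chromosome 1, 3 of these pairs followed one another. The widest pair of all was at *Mroh2a*, over 53769 bp in fl/fl (88138912 to 88192680) and 53527 bp in ΔIE (88138966 to 88192492). It shared 99.5% of its span, the largest share of any pair, and had 4.81 and 4.56 times the median signal. *Hjurp*, which encodes a chaperone of the centromeric histone CENP-A, came next with 14637 and 14508 bp, 99.1% shared and 3.77 and 3.03 times the median. *Trpm8*, the gene of a cold-sensing ion channel, followed with 17433 and 15736 bp and 3.37 and 3.07 times the median. The right edge of the *Hjurp* pair was at the same base in both lists.

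The remaining strong pairs were at *Gm7860*, LOC118567813 and *2700054A10Rik*. At *Gm7860* the peaks were the narrowest of all matched ones, 723 and 862 bp, with 5.67 and 4.19 times the median. Reads of near-identical copies of a locus cannot be told apart in a peak list, and values for predicted genes and repeated loci such as LOC118568312, *Sfi1* and *Gm4252* are uncertain for that reason. The part of copy number and of mapping in the signal of all 11 pairs was not tested.

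Among the other wide pairs, the widths differed more. LOC118568117 on chromosome 14 had 20268 and 22190 bp. At *Rxra*, the gene of the retinoid X receptor alpha, the peak measured 21735 bp in fl/fl and 12214 bp in ΔIE, which lay wholly inside the wider one. *Grm2*, a glutamate receptor gene, had 20999 and 11163 bp, and *Zfp316*, a zinc finger gene, 19324 and 12113 bp. *Gm16315* and *Gm52673* were wider in ΔIE, with 12623 and 17310 bp and with 13096 and 15716 bp.

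Close agreement of the edges was found at other pairs too. *Smok2a*, a sperm motility kinase gene, shared 99.3% of its span, also with a high signal of 1.99 and 2.14 times the median. The next pairs were nearer to the median signal. *D430019H16Rik* shared 98.8% with 1.02 and 0.945 times, *Fgd3* 98.6% with 1.22 and 1.02 times, and *Gm31623* 98.0% with 0.997 and 0.880 times the median. *Trmu*, which encodes an enzyme that modifies mitochondrial tRNA, shared 98.8% with 1.55 and 0.813 times, and *Apeh*, a peptidase gene, 98.7% with 1.52 and 0.896 times. Near-identical edges thus came with unequal relative signal in *Trmu* and *Apeh*.

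Of the pairs at promoters of the same gene, the largest falls in width were bounded by the rule at a log2 ratio of -1. They were at *Eno1*, *Gm46043*, *Tbxas1*, *Crybg2* and *Ap2a1*. At *Tbxas1*, the gene of thromboxane A synthase, the width was 7663 bp in fl/fl and 3834 bp in ΔIE. At *Ap2a1*, which encodes a subunit of the clathrin adaptor AP-2, it was 6770 and 3390 bp, and at *Crybg2* 7260 and 3633 bp. The largest rises were at *4930556I23Rik* (log2 ratio 0.95), *Prss53* (0.95), *Prr5* (0.94), *Numbl* (0.94) and *Tnfaip2* (0.92). *Prr5*, which encodes a component of mTOR complex 2, measured 3513 and 6758 bp. *Tnfaip2*, a gene induced by tumour necrosis factor, 4340 and 8195 bp. With 1 library per genotype, these differences have no replicate check.

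Most genes had 1 matched pair (2495 of 2834), and 339 had more. The most pairs were at *Cacna2d1*, the gene of a calcium channel subunit, with 9 pairs out of 21 peaks in fl/fl and 22 in ΔIE. *Atp2b2*, which encodes a plasma membrane calcium pump, had 6 pairs out of 13 and 12 peaks. *Gm28710*, *Nol4l* and *Tns1* had 5 pairs each, out of 12 and 14, 10 and 11, and 7 and 15 peaks, respectively. *Cacna2d1* and *Gm28710* lie near each other on chromosome 5. Their pairs were modest in signal, from 0.863 to 1.33 times the median at *Cacna2d1*, where the shared part of the span ran from 46.4% to 89.5%. At *Tns1*, which encodes the focal adhesion protein tensin 1, the widths ran from 3724 to 9178 bp in fl/fl and from 3238 to 10039 bp in ΔIE.

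Matched regions also came in clusters. With gaps of up to 20 kb joined, 2333 stood alone, 267 clusters held 2 pairs, 62 held 3, 18 held 4, 3 held 5 and 1 held 8. The cluster of 8, on chromosome 14 from 25933230 to 26025074, was annotated to *Gm19013*, *Cphx1*, *Duxbl1* and *Gm46445*. It lies in a family of homeobox gene copies and is uncertain for that reason. The clusters of 5 were at *Myo15b* and *Smim5* on chromosome 11, at *Notch4*, *Gpsm3* and *Agpat1* on chromosome 17, and at *Hes5* and *Plch2* on chromosome 4. *Hes5* is a repressor induced by Notch signalling, and its promoter pair measured 12737 and 9949 bp.

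Listed pathways and markers, chosen with earlier results of these data known, were then read against the 15.6% of all genes with a peak that had a pair. The lists held 318 genes, of which 199 had a peak in either library and 31 had 41 pairs in all. The share of 31 in 199 is likewise 15.6%. Of these 41 pairs 26 were narrower and 15 wider in ΔIE, with a median log2 ratio of -0.20, beside -0.25 over all pairs. Apart from *Vil1*, their signal lay between 0.794 and 1.55 times the list median. The lists name the nearest gene, so the feature of a peak need not belong to the gene named.

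**Figure D5:**
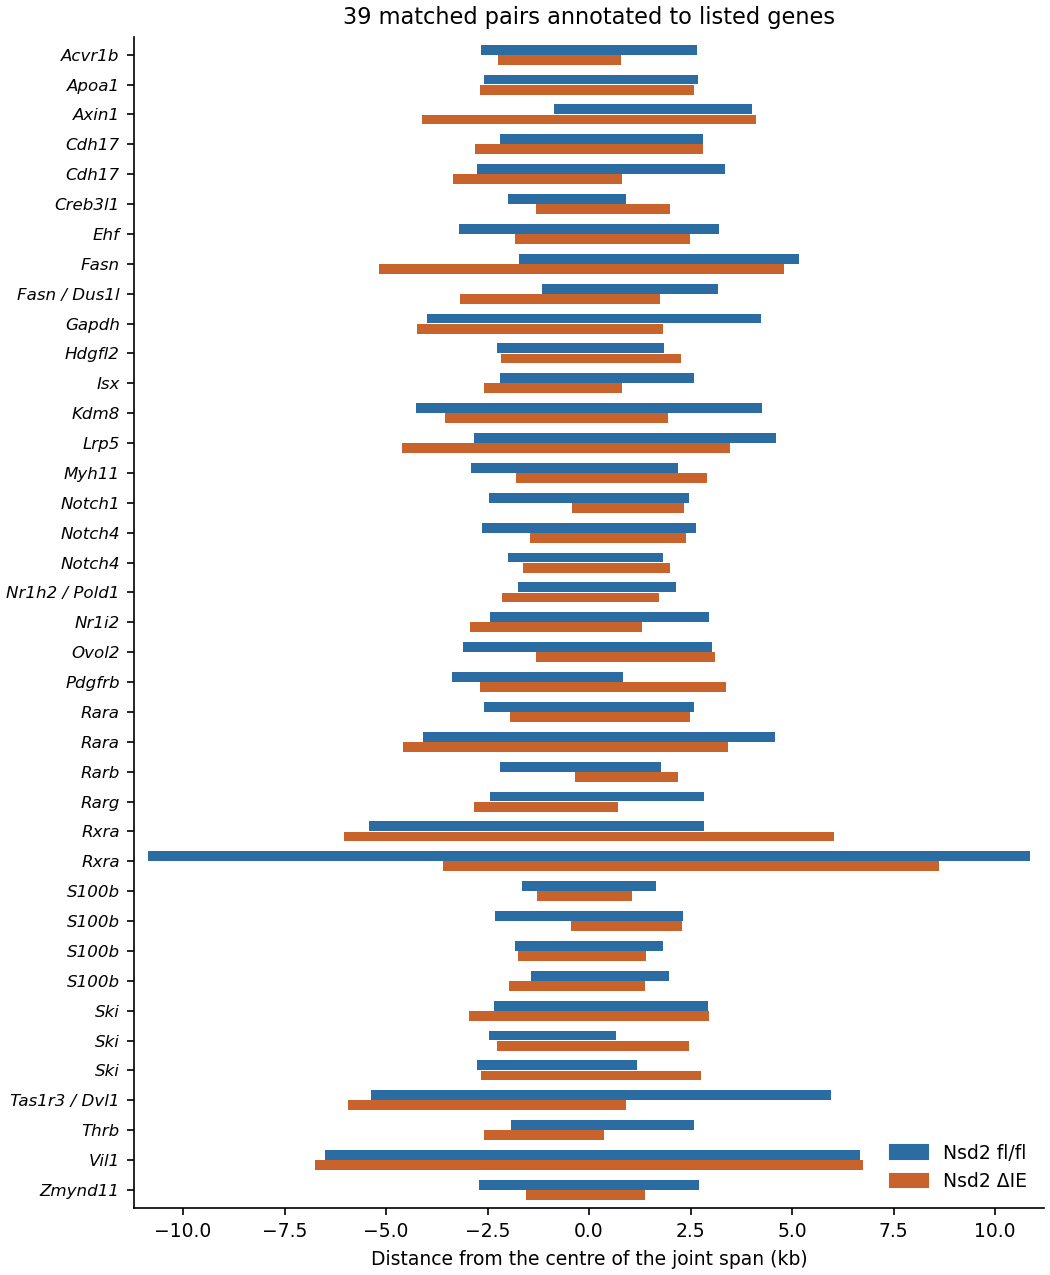
Extent of the fl/fl peak (blue) and the ΔIE peak (orange) of 39 of the 41 matched pairs annotated to listed genes, as distance in kb from the centre of the joint span of each pair. Where the libraries name different genes, both are given. The *Vil1* and *Apoa1* peaks end at nearly the same points, whereas the widest *Rxra* peak measures 21735 and 12214 bp.

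Nuclear receptors and their coregulators, which turn hormones, retinoids and lipid ligands into transcription, had 9 of 30 genes with a pair, a larger share than that over all genes. No test was made of this difference. By peaks, 18.03% of the 61 in fl/fl and 14.3% of the 70 in ΔIE were matched, beside 15.8% and 13.4% of all. Receptors of retinoids made up 4 of the 9. *Rara*, the retinoic acid receptor alpha, had 2 pairs at promoters, 5182 and 4425 bp wide at the first and 8674 and 8013 bp at the other, with 85.4% and 82.1% of the span shared. *Rarg* had a promoter pair of 5266 and 3545 bp. *Rarb* was named for an intronic pair of 3958 and 2528 bp, at -30336 and -29923 bp from its TSS (minus for upstream).

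Besides the 3′ UTR pair above, *Rxra* had an intronic pair that was wider in ΔIE, 8254 and 12079 bp. The gene had 10 peaks in fl/fl and 11 in ΔIE, and 7 of its fl/fl peaks overlapped short of the rule. *Thrb*, a thyroid hormone receptor, had 4511 and 2942 bp. *Nr1i2*, the receptor PXR that senses foreign compounds and bile acids, had 5395 and 4240 bp in an exon. *Nr1h2*, the liver X receptor beta, was named for a peak of 3874 bp in fl/fl whose partner of 3865 bp was annotated to the neighbour *Pold1*.

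Wnt and Notch pathway genes had 5 of 22 with a pair. *Axin1*, a scaffold of the complex that breaks down beta-catenin, was wider in ΔIE at its promoter, 4877 and 8210 bp. *Lrp5*, a Wnt coreceptor, had 7443 and 8065 bp in an intron. The peak of 11329 bp at *Tas1r3* in fl/fl was paired with one of 6860 bp named for its neighbour *Dvl1*. *Notch1* had 4942 and 2764 bp, and *Notch4*, whose promoter is shown above, 3800 and 3608 bp there with 86.1% shared and 5264 and 3845 bp at a second pair. The receptors were thus both narrower in ΔIE, at 3 pairs.

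In the TGF-beta and Smad list, 2 of 12 genes had a pair. *Ski*, a corepressor that binds Smad proteins and has the CpG-dense promoter above, had 3 pairs, all wider in ΔIE: 5253 and 5900 bp, 3143 and 4734 bp, and 3938 and 5416 bp at the promoter. *Acvr1b*, an activin receptor, had 5330 and 3024 bp.

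Intestinal transcription factors had 4 of 26 genes with a pair. *Ehf*, an epithelial ETS factor, had a distal pair of 6398 and 4296 bp. *Isx*, an intestine-specific homeobox factor, had 4797 and 3404 bp, 1 pair among 6 and 5 peaks. *Ovol2* had 6116 and 4402 bp and *Creb3l1* 2911 and 3292 bp at its promoter. Families of transcription factors with 20 or more genes with a peak, as the lists assign them, were counted too. A pair was found for 21 of 89 homeobox (23.6%), 34 of 179 C2H2 zinc finger (19.0%) and 6 of 28 forkhead genes (21.4%). The counts were 4 of 27 ZBTB (14.8%), 8 of 56 bHLH (14.3%), 2 of 27 HMG (7.41%) and 2 of 31 bZIP genes (6.45%). Over all genes with a peak the share was 15.6%, and no test was made of the families. The homeobox genes with a pair include *Cphx1* and *Duxbl1* of the uncertain cluster on chromosome 14.

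Writers, erasers and readers of H3K36 methylation had 3 of 16 genes with a pair. *Hdgfl2*, a reader of methylated H3K36, had a promoter pair of 4120 and 4436 bp with 89.1% of the span shared. *Kdm8* had 8536 and 5478 bp, and *Zmynd11*, a reader of trimethylated H3K36 on histone H3.3, 5401 and 2935 bp. Peaks of *Nsd1*, *Nsd2*, *Nsd3* and *Setd2*, named after their values were seen, had no match. Of these genes only *Nsd1* had a peak in both lists, 1 in each. *Nsd2* and *Setd2* had 1 peak each in ΔIE alone, and *Nsd3* had 2 in fl/fl alone.

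Lipid metabolism genes had 2 of 24 with a pair. *Apoa1*, which encodes the main protein of high-density lipoprotein, was named for nearly the same peak in both libraries, 5257 and 5263 bp with 96.5% shared. It lay at -19444 and -19535 bp from the *Apoa1* TSS (minus for upstream), with an exon as its feature, and thus not at the *Apoa1* promoter. *Fasn*, the fatty acid synthase gene, had 6905 and 9966 bp at its promoter and a second pair of 4346 and 4920 bp, whose ΔIE peak was named for *Dus1l*. Peaks of *Acly*, *Abca1*, *Hmgcs1* and *Dgat2*, named here after their values were seen, were in both lists and had no match.

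Junction and polarity genes had 0 matched peaks of 22 in fl/fl and 26 in ΔIE, at 21 genes, which allows a share of up to 13.6% and 11.5%. The MAP kinase cascades had 0 of 16 in each library, at 20 genes, which allows up to 18.8%. The unfolded protein response list had 0 of 3 peaks in each library. Over all peaks the shares were 15.8% and 13.4%. The limits treat peaks as independent of each other, and the lists were chosen with earlier results known. No test was made of them, and no lack of matches in any list is read from the limits.

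Of the marker lists, *Vil1* and *Cdh17*, an intestinal cadherin, had pairs among the 8 epithelial markers with a peak. *Cdh17* had a distal intergenic pair of 4997 and 5631 bp, at -20806 and -20801 bp from its TSS (minus for upstream). Its other pair, of 6103 and 4147 bp, was annotated to an exon. Peaks named for markers of cells outside the epithelium were matched too. *Myh11*, the smooth muscle myosin heavy chain, had a promoter pair of 5083 and 4690 bp, and *Pdgfrb* of stromal cells 4226 and 6057 bp. *S100b* of glia was named for 4 pairs of 2335 to 4614 bp. In fl/fl these lay 10541 to 35839 bp downstream of its TSS. For 3 of them the feature was an exon in both libraries, which need not be an exon of *S100b*. Immune markers had 0 matched peaks of 3 and 7. Of the 5 ubiquitously expressed genes with a peak, *Gapdh* was named for a pair, 8220 and 6057 bp, at -5617 and -5357 bp from its TSS. The part of cells outside the epithelium in the matched regions was not tested.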

How the data were processed

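H3K36me2 CUT&Tag peaks of 1 *Nsd2* fl/fl and 1 *Nsd2* ΔIE colon library were analysed, grouped by the genotype in the labels. The submitters' processing notes name Bowtie2, deepTools, SEACR and ChIPseeker without versions, and a human genome build, hg38, although the tissue is from mouse. The roles and settings of the tools are not given in the sources used here. The authors deposited for each peak its position, width and distance to the TSS in bp, a summed signal without stated scaling to depth, the stretch of maximum signal, and the nearest gene and feature. The depth is unknown. Peaks were called per library, not on pooled samples. Coordinates are those of the lists, and their mouse build was not identified.

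Pairs on numbered chromosomes with a reciprocal overlap of at least 50% were found with pandas 2.3.3 and numpy 2.4.6 under Python 3.11.15, with 95% Wilson intervals from scipy 1.17.1 and plots by matplotlib 3.10.9. Signal per bp was divided by its median over all peaks of the list, those outside the numbered chromosomes included. The matching was tested on simulated data, where 1509 of 1509 pairs among 3000 peaks were found. With 1 library per genotype there was no test and no replicate error.

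Members and gene lists were chosen with earlier results of these data known. Named were genes of the lists with a pair, the 10 widest pairs, the 10 with the largest shared span, the 10 with the highest relative signal, the 5 genes with most pairs, the 5 largest falls and 5 largest rises of width at promoters, and 3 pairs on either side of the threshold. Not every gene that this rule covers is reported here. Other genes were named after their values were seen. Alternatives were other overlap limits, all chromosomes and contigs, merged peaks, subsets by signal, other promoter and unmatched definitions, the other library's annotation, shares of length, a minimum width difference and other gene denominators. Promoter sequences and biotypes are from RefSeq (GRCm38.p6), matched by symbol. Pathway columns of the lists were not used.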

Additional observations from a re-analysis of the deposited data

Results flagged for a closer look

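Outside the numbered chromosomes, which the comparisons above leave out, 6 further pairs met the same overlap rule, among 7 *Nsd2* fl/fl and 11 *Nsd2* ΔIE peaks on mitochondrial DNA and unplaced contigs. They were set apart because they are data that the report's comparisons do not use, and there is no control library to set them against.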

How the results depend on the processing

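Of 41 alternative values 31 moved. The median log2 width ratio stayed negative, and the share of pairs narrower in *Nsd2* ΔIE stayed above 50%, under each alternative run for them. The other 10 stayed near the main value, where counts of pairs were given a wider margin than shares: all chromosomes gave 3154 pairs, merged peaks 2961 and equal numbers of peaks 2928. With a reciprocal overlap of 25%, 5618 pairs were found (28.1% of *Nsd2* fl/fl peaks, 24.3% of *Nsd2* ΔIE peaks), 73.2% of them narrower in *Nsd2* ΔIE, with a median log2 width ratio of -0.42. With 75%, 919 pairs were found (4.60% and 3.91%), 60.2% narrower, with a median of -0.060. With 1 bp, 6802 *Nsd2* fl/fl peaks had an overlap (34.1% and 30.7%). Merging peaks within 1 kb gave 15.1% and 13.0%, the strongest 50% of each list 1475 pairs (14.8% and 12.6%), and equal numbers of peaks 14.7% of each list. Promoters within 1 kb took 27.7% of matched peaks and 22.4% and 17.4% of unmatched *Nsd2* fl/fl and *Nsd2* ΔIE peaks, and by length 40.3%, 33.6% and 27.9%. Counting only peaks without any overlap as unmatched gave 28.8% and 24.8%. Among width differences of at least 10%, 72.2% were narrower. Genes with a pair were 14.4% when both peaks had to name the same gene, and 34.4% of genes with peaks in both lists. The matched promoter share stayed above the unmatched ones with promoters of 1 kb, by length, and against peaks without any overlap. Unmatched shares were not computed for the overlap limits of 25% and 75%. In *Nsd2* fl/fl, the peaks that overlapped short of the rule had a promoter share of 39.4%, beside 37.8% of matched peaks. No paired analysis was possible because the series holds 1 library of each genotype. The depth is unknown and limits what can be said of peaks that lack a match.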
